A study of Mus musculus with 35 samples.

Results

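Expression of 9 forkhead genes was followed across 6 tissues of the mouse embryo: Foxc1, Foxc2, Foxd1, Foxd2, Foxf2, Foxl1, Foxl2, Foxa1 and Foxa2. They were chosen by name, as forkhead factors that respond to Hedgehog signalling or act in neural crest derived mesenchyme, and are 9 of the 30723 gene symbols in the tables. Wild-type CD1 embryos at embryonic day 11.5 gave 35 libraries of polyA RNA: 6 each of the frontonasal prominence (FNP), mandibular prominence (MNP), limb, ventral brain (vB) and dorsal brain (dB), and 5 of the maxillary prominence (MXP). All groups share strain, genotype and age, each library pools tissue from several embryos, and the replicates are described as biologically independent. The 3 prominences, outgrowths that form the face, make up the facial tissue of the comparisons, and vB and dB, which some labels call ventral and dorsal neural tube, the neural tissue. Values are FPKM, which count sequenced fragments relative to transcript length and library size. Differences were tested with limma on log2(FPKM + 1) over 13934 genes whose mean reached 1 FPKM in any of the tissues, a filter that all 9 genes passed. Genes were called where the adjusted p (Benjamini-Hochberg) lay under 0.05 and the fold change was 2 or more. Log2 fold changes are given ± SE, and adding 1 makes them smaller than the ratio of FPKM for weakly expressed genes.

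Forkhead factors bind DNA through a winged-helix domain and take part in patterning and cell fate from gastrulation onward. In the face, Hedgehog ligand from epithelia signals to the underlying mesenchyme, where Gli factors act on targets that include forkhead genes. In the ventral neural tube the same pathway acts on Foxa2 in the floor plate, and Foxa1 and Foxa2 are otherwise best known as pioneer factors of the endoderm. Foxc1, Foxc2, Foxd1, Foxd2, Foxf2 and Foxl1 are known from mesenchyme of the head, somites, kidney or gut, and Foxl2 from the eyelid and the ovary.

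Foxa1 and Foxa2 were low in most of the tissues rich in mesenchyme transcripts. Their means in FNP, MXP and limb were between 0.0147 and 0.406 FPKM, in tissues where 11 mesenchyme markers (among them Prrx1, Twist1, Pdgfra and Col1a1) summed to 505.8 to 1496 FPKM per library. In MNP, where these markers summed to 716 to 1257 FPKM, the means were 1.64 FPKM for Foxa1 and 0.947 FPKM for Foxa2. Both had their highest means in vB and dB.

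Depth allowed 1 FPKM to stand for 36.0 to 73.4 reads per kb of transcript, if coverage counts reads of 75 bases, so 0.1 FPKM stood for 3.60 to 7.34 reads per kb. Some libraries stood apart in cell type markers. The mesenchyme markers summed to 232, 63.9, 29.0, 304, 395 and 8.03 FPKM in vB replicates 1 to 6, and to 237 to 449 FPKM in dB. Markers of neural tissue (11 genes, among them Fabp7, Hes5 and Tubb3) summed to 223 and 189 FPKM in FNP replicates 4 and 5 and to 97.3 to 133 FPKM in the other FNP libraries. In limb they summed to 44.7 FPKM in replicate 1 and to 14.6 to 18.7 FPKM in the others. In MNP replicates 2 and 3 all 9 genes were lower than in the other MNP libraries, while the mesenchyme markers there, at 1257 and 847 FPKM, lay within or above the 716 to 1078 FPKM of the other 4 MNP libraries. Some of the results that rest on these libraries are also given without them. In pooled tissue, fewer cells of a type and less RNA per cell cannot be told apart.

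Of the 9 genes, 4 are shown with the 250 bases before their start site. At Foxl2, Foxd2 and Foxf2 these bases lie on the side of a transcript on the other strand. At Foxa1 they hold a match to the forkhead motif. The sequences are those of RefSeq on GRCm38.p6, the assembly of mm10, and an entry was matched for 7 of the 9 genes, Foxc2 and Foxl1 being the others. Foxl2 is at chr9:98955357-98955606 (plus strand), Foxd2 at chr4:114908899-114909148 (minus strand), Foxf2 at chr13:31625566-31625815 (plus strand) and Foxa1 at chr12:57546112-57546361 (minus strand). Capitals mark the GC box GGGCGG, the CCAAT box and the forkhead motif TGTTTAC, each also on the other strand.
Foxl2: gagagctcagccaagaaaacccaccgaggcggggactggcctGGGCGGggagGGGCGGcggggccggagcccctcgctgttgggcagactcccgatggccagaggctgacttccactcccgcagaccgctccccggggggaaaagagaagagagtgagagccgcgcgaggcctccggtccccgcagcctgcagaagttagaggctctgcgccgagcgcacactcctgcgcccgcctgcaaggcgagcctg
Foxd2: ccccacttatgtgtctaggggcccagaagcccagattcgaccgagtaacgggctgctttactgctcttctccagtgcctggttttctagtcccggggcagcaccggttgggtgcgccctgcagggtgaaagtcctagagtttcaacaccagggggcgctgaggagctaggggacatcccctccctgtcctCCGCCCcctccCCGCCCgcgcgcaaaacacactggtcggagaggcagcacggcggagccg
Foxf2: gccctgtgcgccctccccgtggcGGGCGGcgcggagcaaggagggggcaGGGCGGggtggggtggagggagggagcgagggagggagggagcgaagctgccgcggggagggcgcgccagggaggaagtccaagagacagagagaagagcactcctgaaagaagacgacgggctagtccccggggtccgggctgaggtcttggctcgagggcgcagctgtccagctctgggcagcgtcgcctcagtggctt
Foxa1: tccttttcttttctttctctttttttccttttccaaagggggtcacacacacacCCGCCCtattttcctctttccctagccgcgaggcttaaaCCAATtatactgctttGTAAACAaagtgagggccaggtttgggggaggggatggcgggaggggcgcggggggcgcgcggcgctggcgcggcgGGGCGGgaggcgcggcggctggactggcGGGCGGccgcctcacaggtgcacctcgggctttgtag

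The GC box was present in 9 of 9 windows of 300 bases (250 before and 50 after the start) that belong to the 7 matched genes, 3 of them to Foxa2, and in 35.7% of 32851 such windows of all genes. Among these genes the forkhead motif was present before Foxa1 alone, 141 bases from the start, and in 3.65% of all windows. The Gli motif GACCACCCA was in 0 of the 9 windows and in 0.253% of all windows. CCAAT was in windows of Foxa1, Foxa2, Foxc1 and Foxd1 and in 37.4% of all windows, and TATAAA in 1 of the Foxa2 windows and in 13.6% of all windows. These are matches of letters and were not tested as sites.

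Each of the 9 genes was called in at least 1 of the 15 pairs of tissues, where 21.3% of all genes tested were. Over the 135 combinations of gene and pair, 67 were called (49.6%), against 7.60% over all genes. Foxd1 was called in 11 pairs, and 0.797% of all genes were called in as many. Foxl2 and Foxa1 were called in 9 pairs, and Foxc1 and Foxl1, the fewest, in 5 pairs. The summed level of the 9 genes averaged 96.4 ± 24.1 FPKM in FNP and 10.9 ± 5.77 FPKM in limb (SD, n = 6 each), with MNP, vB, MXP and dB between them at 64.6, 65.0, 45.3 and 43.2 FPKM. The gene with the largest share of that sum differed between tissues: it was Foxd1 in FNP, MNP, vB and dB, Foxl2 in MXP (64.3%) and Foxc1 in limb (64.3%).

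**Figure D1:**
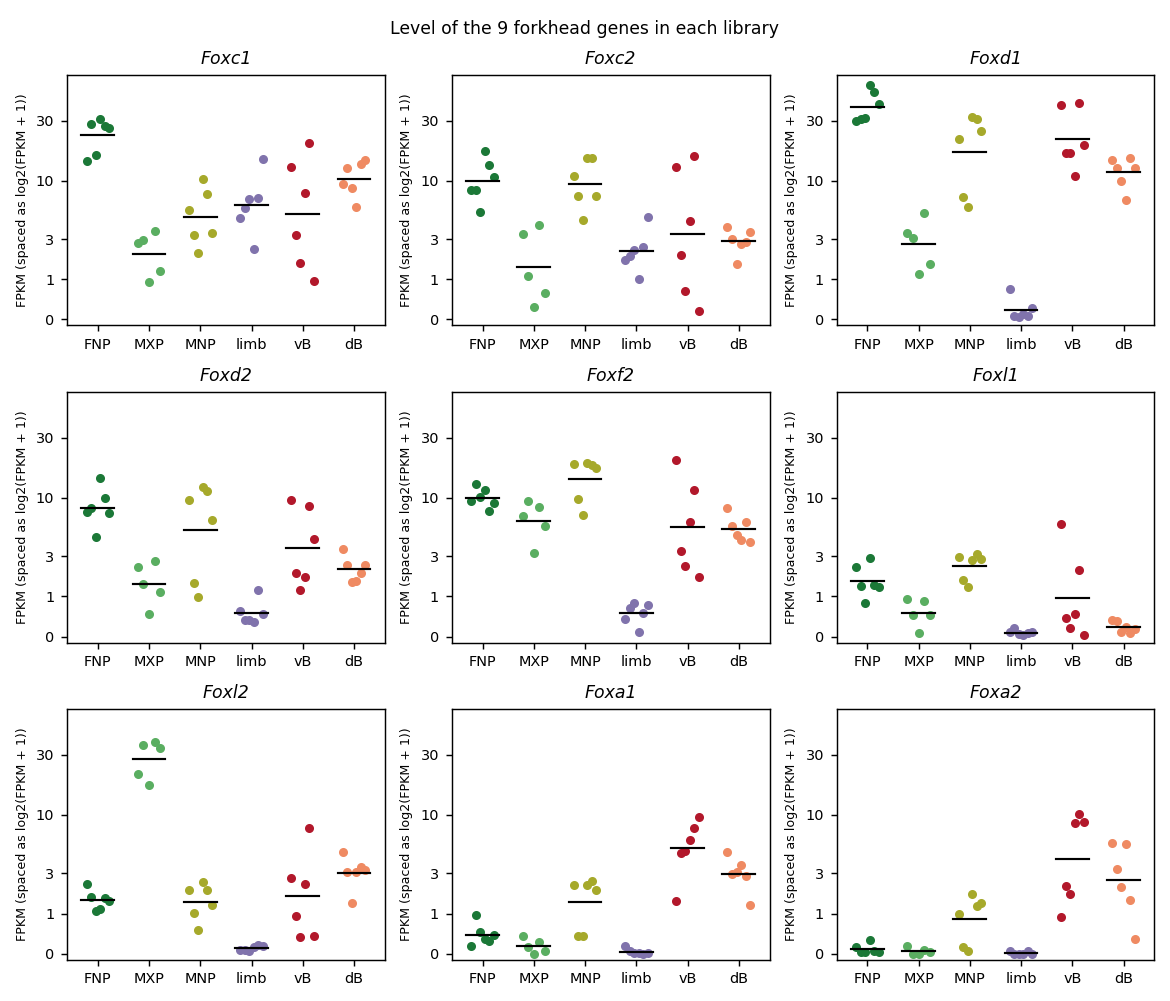
Level of each gene in each library, 1 point per library, with FPKM on an axis spaced as log2(FPKM + 1), tissues along the horizontal axis and a bar at the mean of the log2 values. The 5 MXP libraries sit between 17.5 and 37.4 FPKM for Foxl2, above every other library, and the 6 limb libraries are low for every gene but Foxc1 and Foxc2.

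Foxc1 and Foxc2 are close relatives that act together in head, eye and vessel development, and human FOXC1 mutations cause Axenfeld-Rieger syndrome. Foxc1 (chr13:31806646-31810635) had a lowest, median and highest level of 14.4, 26.9 and 30.7 FPKM in FNP. It had 2.73, 2.95, 0.891, 3.57 and 1.29 FPKM in MXP libraries, and 2.15, 4.52 and 10.3 FPKM (lowest, median, highest) in MNP. Every FNP library was above every MXP and MNP library. Foxc1 had 2.35, 6.42 and 14.9 FPKM in limb, 0.929, 5.57 and 20.1 FPKM in vB, and 5.91, 10.98 and 14.6 FPKM in dB (lowest, median, highest of each). It was higher in FNP than on average in the other prominences (log2 fold change 2.49 ± 0.38, adjusted p = 1.2e-05), with 23.9 ± 6.89 FPKM (SD, n = 6) in FNP and 3.99 ± 2.83 FPKM (SD, n = 11) in the others. In MXP it was lower than on average in the other prominences (log2 fold change -1.92 ± 0.40, adjusted p = 0.0025), although MXP against MNP alone was not called (-0.90, adjusted p = 0.72). After FNP the mean levels ran from dB over vB, limb and MNP to MXP, and no step between neighbours in this order was called, that between FNP and dB included (adjusted p = 0.055).

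Foxc2 (chr8:121116171-121118894) differed from Foxc1 in MNP, where its level was close to that in FNP. Its lowest, median and highest levels were 5.34, 9.50 and 17.3 FPKM in FNP and 4.57, 9.17 and 15.4 FPKM in MNP. MXP libraries had 3.40, 1.11, 0.227, 4.10 and 0.585 FPKM, below every FNP and MNP library. Limb had 1.01, 2.16 and 4.84 FPKM, vB 0.157, 3.23 and 15.7 FPKM, and dB 1.61, 2.91 and 3.89 FPKM (lowest, median, highest of each). Foxc2 was lower in MXP than on average in the other prominences (log2 fold change -2.10 ± 0.43, adjusted p = 0.0023), with 1.88 ± 1.75 FPKM (SD, n = 5) against 10.3 ± 4.16 FPKM (SD, n = 12). Between FNP and MNP the log2 difference was 0.07 with a 95% interval from -0.88 to 1.02, which also covers differences of nearly the called size. In the order of means, MNP against vB was the one called step (log2 fold change 1.24 ± 0.47, adjusted p = 0.031), and its libraries overlapped.

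Foxd1 and Foxd2 are known from kidney stroma and head mesenchyme, and Foxd1 also from the retina and the ventral forebrain. Foxd1 (chr13:98354245-98356705) had 29.6, 35.5 and 56.0 FPKM in FNP (lowest, median, highest) and 5.93, 23.3 and 31.8 FPKM in MNP. MXP libraries had 3.45, 3.09, 1.17, 5.28 and 1.60 FPKM. The MXP levels were below every library of FNP, MNP and brain and above every limb library. Limb had 0.0489, 0.0835 and 0.687 FPKM, vB 10.8, 18.05 and 41.0 FPKM, and dB 6.85, 12.7 and 15.2 FPKM (lowest, median, highest of each). It was higher in facial tissue than in limb (log2 fold change 3.55 ± 0.28, adjusted p = 7.4e-12), rank 31 of the 13934 genes by absolute fold change, and lower in limb than in brain tissue (log2 fold change -3.84 ± 0.29, adjusted p = 6.7e-13). FNP was higher than the other prominences (log2 fold change 2.27 ± 0.30, adjusted p = 1e-06) and MXP lower (log2 fold change -2.87 ± 0.31, adjusted p = 1e-07). Of the steps in the order of its means, FNP, vB, MNP, dB, MXP and limb, only those from dB to MXP and from MXP to limb were called.

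Foxd2 (chr4:114906280-114908898) ran at a lower level in a like order. It had 4.56, 7.85 and 14.4 FPKM in FNP and 0.964, 7.997 and 12.2 FPKM in MNP (lowest, median, highest of each). MXP libraries had 2.33, 1.47, 0.471, 2.68 and 1.16 FPKM. All were below the FNP libraries, while they overlapped with MNP. Limb had 0.295, 0.403 and 1.25 FPKM, vB 1.24, 3.18 and 9.56 FPKM, and dB 1.56, 2.21 and 3.52 FPKM. Foxd2 was higher in facial tissue than in limb (log2 fold change 1.80 ± 0.33, adjusted p = 0.00013). It was higher in FNP than on average in the other prominences (log2 fold change 1.22 ± 0.35, adjusted p = 0.021), a call lost without FNP replicate 4 (adjusted p = 0.076), without FNP replicate 5 (adjusted p = 0.052), without both (log2 fold change 0.97, adjusted p = 0.19) and without MNP replicates 2 and 3 (log2 fold change 0.84, adjusted p = 0.061). It was lower in MXP (log2 fold change -1.62 ± 0.37, adjusted p = 0.0065), which did not pass without MXP replicate 3 (adjusted p = 0.053). No step in the order of its means was called.

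Foxf2 and Foxl1 mark mesenchyme next to Hedgehog-producing epithelia, in the palate and gut. Foxf2 (chr13:31625816-31631406) had 7.72, 9.76 and 13.0 FPKM in FNP (lowest, median, highest). MXP libraries had 7.07, 9.37, 3.23, 8.34 and 5.76 FPKM, and MNP 7.21, 17.9 and 18.9 FPKM (lowest, median, highest). The 3 prominences overlapped, and every one of their libraries was above the limb libraries. Limb had 0.0825, 0.566 and 0.783 FPKM, vB 1.81, 4.81 and 20.1 FPKM, and dB 4.10, 5.24 and 8.26 FPKM. Foxf2 was higher in facial tissue than in limb (log2 fold change 2.85 ± 0.27, adjusted p = 5.9e-10) and lower in limb than in brain tissue (log2 fold change -2.12 ± 0.28, adjusted p = 1.4e-07). Between the prominences it was called in no comparison, while MNP was higher than vB and dB (log2 fold changes 1.21 and 1.24). In the order of its means, MNP, FNP, vB, MXP, dB and limb, the step between dB and limb was the one called.

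Foxl1 (chr8:121127685-121130644) had 0.799, 1.41 and 2.89 FPKM in FNP and 1.33, 2.79 and 3.14 FPKM in MNP (lowest, median, highest of each). MXP libraries had 0.918, 0.440, 0.0578, 0.856 and 0.445 FPKM, below every MNP library. Limb had 0.0182, 0.0710 and 0.164 FPKM, vB 0.0203, 0.425 and 5.95 FPKM, and dB 0.0643, 0.161 and 0.328 FPKM. It was higher in facial tissue than in limb (log2 fold change 1.14 ± 0.23, adjusted p = 0.00063). In MXP against the other prominences its log2 fold change was -0.97 (SE 0.26, adjusted p = 0.031), just under the fold required, and it was called with 0.1 in place of 1 added to the FPKM (-1.90, adjusted p = 0.042), or when any 1 of 5 libraries was left out (FNP replicate 3, MXP replicates 1 and 5, MNP replicates 2 and 3). No step in the order of its means, MNP, FNP, vB, MXP, dB and limb, was called.

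Foxl2 stood apart from the other 8 genes by its level in MXP. Human FOXL2 mutations cause an eyelid malformation with ovarian failure, and the gene acts in periocular mesenchyme. Foxl2 (chr9:98955607-98958126) had 21.3, 35.6, 17.5, 37.4 and 33.9 FPKM in the MXP libraries. FNP had 1.10, 1.56 and 2.33 FPKM and MNP 0.510, 1.66 and 2.45 FPKM (lowest, median, highest of each). No library outside MXP was above 7.80 FPKM. Limb had 0.0411, 0.0925 and 0.155 FPKM, vB 0.346, 1.63 and 7.80 FPKM, and dB 1.42, 3.19 and 4.76 FPKM. In MXP it was higher than on average in the other prominences (log2 fold change 3.54 ± 0.28, adjusted p = 1.2e-10), with 29.1 ± 9.09 FPKM (SD, n = 5) against 1.56 ± 0.576 FPKM (SD, n = 12), rank 2 of the 13934 genes by absolute fold change. MXP was also higher than dB, the next in the order of means (log2 fold change 2.83 ± 0.31, adjusted p = 5.9e-09). The calls of Foxl2 as lower in FNP and in MNP than on average in the other prominences (log2 fold changes -1.74 and -1.80) set each of them against groups that include MXP; FNP and MNP differed by 0.04 on the log2 scale, with a 95% interval from -0.57 to 0.65. In limb it was lower than in MNP, its neighbour in the order (MNP against limb, log2 fold change 1.16 ± 0.30, adjusted p = 0.0098).

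Foxa1 and Foxa2 had their highest levels in brain. Foxa1 (chr12:57540632-57546121) had 1.503, 4.70, 4.87, 6.11, 7.78 and 9.64 FPKM in vB replicates 1 to 6 and 4.84, 2.95, 3.09, 3.64, 2.81 and 1.31 FPKM in dB replicates 1 to 6. In MNP it had 0.362, 2.14 and 2.51 FPKM and in FNP 0.137, 0.333 and 0.937 FPKM (lowest, median, highest of each). MXP libraries had 0.353, 0.117, 0, 0.220 and 0.0567 FPKM, and limb libraries 0 to 0.138 FPKM. All of the MXP and limb libraries were below every brain library. Foxa1 was lower in facial than in neural tissue (log2 fold change -1.66 ± 0.17, adjusted p = 3.5e-10), with 0.765 ± 0.891 FPKM (SD, n = 17) against 4.44 ± 2.47 FPKM (SD, n = 12). It was also lower in limb than in brain tissue (log2 fold change -2.25 ± 0.22, adjusted p = 3e-10).

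Foxa2 (chr2:148042878-148046969), the only one of the 9 with more than 1 transcript model, had 0.875, 2.22, 1.79, 8.52, 10.2 and 8.76 FPKM in vB replicates 1 to 6 and 5.82, 3.33, 2.15, 5.63, 1.55 and 0.299 FPKM in dB replicates 1 to 6. Both brain groups spanned a wide range and overlapped. In MNP it had 0.0447, 1.14 and 1.82 FPKM and in FNP 0.0255, 0.0388 and 0.266 FPKM (lowest, median, highest of each). It was listed at 0 in 2 of 5 MXP and 4 of 6 limb libraries, and reached no more than 0.135 FPKM in MXP and 0.0466 FPKM in limb. It was lower in facial than in neural tissue (log2 fold change -1.74 ± 0.24, adjusted p = 1.2e-07) and in limb than in brain tissue (log2 fold change -2.07 ± 0.31, adjusted p = 1.2e-06). Foxa1 and Foxa2 levels ran together over the 35 libraries (r = 0.94), and within tissues, after each tissue mean was removed, with r = 0.83. For both the order of means was vB, dB, MNP, FNP, MXP and limb, with no step called. The r values describe libraries that share a tissue and a sequencing run and carry no test.

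In MNP both Foxa genes fell into separate ranges by library. Foxa1 had 0.362 and 0.362 FPKM in replicates 2 and 3 and 1.98 to 2.51 FPKM in the other 4, and Foxa2 had 0.130 and 0.0447 FPKM there and 0.987 to 1.82 FPKM in the other 4. Foxd1 (7.30 and 5.93 FPKM, against 21.6 to 31.8 FPKM) and Foxd2 (1.54 and 0.964 FPKM, against 6.46 to 12.2 FPKM) were also low there, and for all 9 genes these were the 2 lowest MNP libraries. Markers of pharyngeal endoderm (4 genes, Pax1, Nkx2-3, Hhex and Foxe1) summed to 26.1 and 13.3 FPKM in replicates 2 and 3 and 12.2 to 18.5 FPKM in the others, and those of surface ectoderm to 144 and 135 FPKM in replicates 2 and 3 and 134 to 155 FPKM in the others. Over the MNP libraries Pax1 alone ranged from 0.407 to 19.2 FPKM and Foxe1 from 2.05 to 11.3 FPKM, so the sum weighs these markers unequally. The part of either cell type in the levels of replicates 2 and 3 was not tested. Replicates 2 and 3 came from other sequencing runs than the other 4, and with the run as a block no call of the 9 genes changed.

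By comparison, the 9 genes were spread unevenly. Between facial and neural tissue, 2 of the 9 genes were called, Foxa1 and Foxa2, both lower in facial tissue, where 11.3% of all genes were called and 6.64% were lower. By limma Foxf2, Foxl1 and Foxl2 were higher in facial tissue at adjusted p of 0.0048, 0.0037 and 0.0012. Their log2 fold changes of 0.72, 0.65 and 0.77 were under the fold required. For Foxl2 the facial value rested on MXP, with a mean of 29.1 FPKM. Its means in FNP (1.56 FPKM) and MNP (1.55 FPKM) lay below those in vB (2.41 FPKM) and dB (3.18 FPKM). With 0.1 in place of 1 added Foxl1 was called higher (1.59, adjusted p = 0.0006). Without vB replicates 1, 4 and 5, the 3 with the most mesenchyme transcripts, 6 were called, with Foxc2, Foxf2, Foxl1 and Foxl2 higher in facial tissue (log2 fold changes 1.32, 1.18, 1.01 and 1.18). Within vB the mesenchyme markers ran with Foxc2, Foxf2, Foxl1 and Foxl2 (r of 0.73 to 0.95), so lower neural levels of them were built into this choice. The share of all genes called in this fit was not computed. Foxc2 averaged 1.88 FPKM in MXP, below its 2.92 FPKM in dB, while FNP and MNP were above dB. Between limb and neural tissue, 6 were called, all lower in limb (Foxd1, Foxd2, Foxf2, Foxl2, Foxa1 and Foxa2), where 12.4% of all genes were called and 8.05% were lower. The median log2 fold change of the 9 genes there was -1.59, and that of all genes 0.01. With library quality weights Foxd2 fell just short of the fold required (-0.9999, adjusted p = 0.0079), and with 0.1 in place of 1 added Foxl1 was also called (-1.36, adjusted p = 0.027). Between facial tissue and limb, 5 were called, all higher in facial tissue (Foxd1, Foxd2, Foxf2, Foxl1 and Foxl2), where 2.62% of all genes were called and 1.51% were higher, and the median log2 fold change was 1.14 for the 9 genes and 0.02 for all genes. Foxc1 did not pass in any of these 3 comparisons, and for facial tissue against limb its log2 difference of 0.08 had a 95% interval from -0.64 to 0.80. For Foxc2 this difference was 1.02 (adjusted p = 0.077), and it passed without limb replicate 6, vB replicate 5 or vB replicate 6 (adjusted p = 0.049, 0.047 and 0.046).

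Within the face, 4 genes were called in FNP against the other prominences, Foxc1, Foxd1 and Foxd2 higher and Foxl2 lower, where 2.31% of all genes were called. In MXP against the other prominences 5 were called, Foxl2 higher and Foxc1, Foxc2, Foxd1 and Foxd2 lower, where 0.998% of all genes were called, and Foxd1 ranked 8 by absolute fold change there. In MNP 1 was called, Foxl2, lower, where 1.37% of all genes were called. Without MNP replicates 2 and 3 there were 4, with Foxd1, Foxd2 and Foxa1 higher in MNP (log2 fold changes 1.23, 1.15 and 1.38). Without MNP replicate 2 alone, MNP replicate 3 alone or FNP replicate 2 alone there were 2, with Foxa1 higher in MNP. These 3 comparisons share their libraries, so a gene high in MXP counts in each of them.

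**Figure D2:**
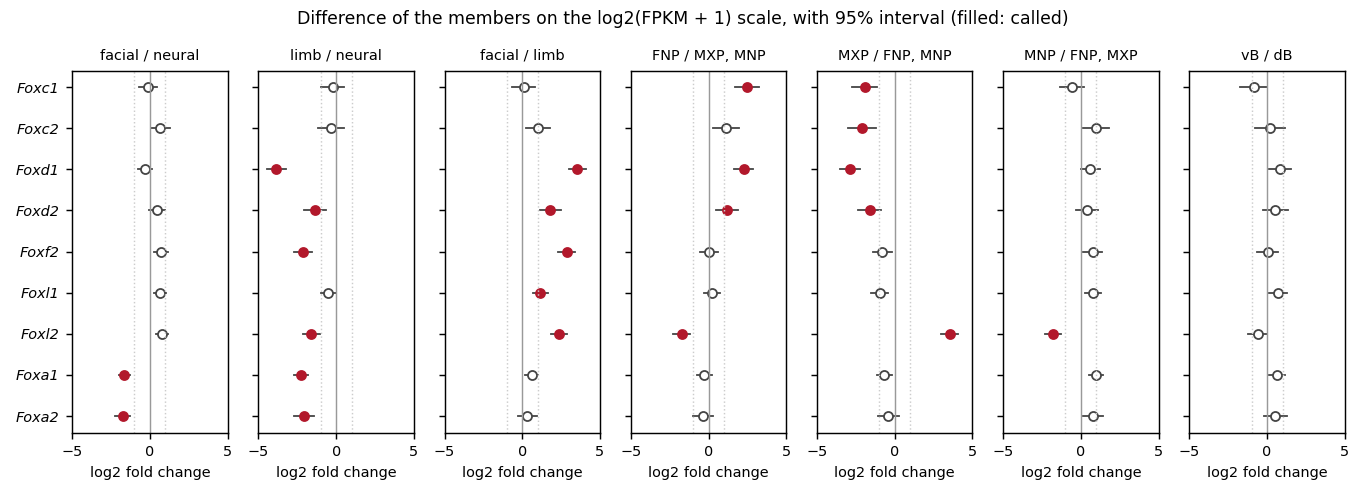
Log2 fold changes of the 9 genes on the log2(FPKM + 1) scale in 7 comparisons, the group named first over the group after the stroke, with 95% intervals as lines; filled points were called and dotted lines mark a fold change of 2. Foxl2 in MXP lies at 3.54, while Foxc1, Foxc2, Foxd1 and Foxd2 there lie between -2.87 and -1.62, and all points for vB over dB are open.

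Between vB and dB none of the 9 genes was called by limma, where 1.39% of all genes were called, and 3 had an unadjusted p under 0.05 (Foxd1, Foxl1 and Foxa1). Foxd1 averaged 24.02 ± 12.9 FPKM in vB and 12.0 ± 3.16 FPKM in dB (SD, n = 6 each; log2 fold change 0.83, adjusted p = 0.19). For some of the genes the spread within vB followed the mesenchyme markers. Over the 6 vB libraries, the r with the mean log2 level of the 11 markers was 0.98 for Foxc1, 0.95 for Foxc2, 0.92 for Foxl2, 0.89 for Foxf2 and 0.73 for Foxl1. It was 0.47 for Foxd2, 0.41 for Foxd1, 0.10 for Foxa2 and -0.34 for Foxa1. Other tissues differed. For Foxc1, Foxc2, Foxl2, Foxf2 and Foxl1 the r was 0.79, 0.28, 0.01, -0.09 and 0.19 in dB, and 0.89, 0.92, 0.34, 0.59 and -0.085 in limb. In MNP it was -0.78 to -0.52 for all 9 genes. With the surface ectoderm markers the r in vB was 0.89 for Foxd1, 0.86 for Foxd2 and 0.87 to 0.92 for Foxc1, Foxc2, Foxf2, Foxl1 and Foxl2. These are descriptions over 6 libraries, and the part of either marker list in the levels was not tested. In vB replicate 6, where the markers summed to 8.03 FPKM, Foxc1 had 0.929 FPKM, Foxc2 0.157 FPKM and Foxl1 0.0203 FPKM. In the same library Foxd1 had 19.4 FPKM, Foxd2 4.35 FPKM, Foxa1 9.64 FPKM and Foxa2 8.76 FPKM. In vB replicates 2 and 3, where the markers summed to 63.9 and 29.0 FPKM, Foxd1 had 16.6 and 16.7 FPKM, Foxd2 2.01 and 1.24 FPKM and Foxa2 2.22 and 1.79 FPKM. Foxd1 and Foxd2 had their highest vB levels in replicates 1 and 5, at 39.7 and 41.0 FPKM for Foxd1 and 9.56 and 8.45 FPKM for Foxd2. Those 2 libraries also held the most transcripts of 9 surface ectoderm markers, which summed to 35.5 and 33.5 FPKM there and to 2.84 to 5.86 FPKM in the other vB libraries.

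Without vB replicates 1, 4 and 5, 3 genes were called between vB and dB, all lower in vB: Foxc1 (log2 fold change -2.02, adjusted p = 0.00025), Foxc2 (-1.11, adjusted p = 0.041) and Foxl2 (-1.41, adjusted p = 4.3e-05). For Foxc2 this turned the direction, since with all libraries its log2 difference was 0.19. The vB libraries then left had mesenchyme sums of 8.03 to 63.9 FPKM, below all dB libraries, and the part of this in the result was not tested. The mesenchyme markers had r of 0.98, 0.95 and 0.92 with Foxc1, Foxc2 and Foxl2 in vB. Lower vB levels of these genes were thus built into the choice, and the adjusted p are no test of a difference. The share of all genes called in this fit was not computed. Surface ectoderm markers also differed, at 35.5 and 33.5 FPKM in vB replicates 1 and 5 and 2.84 to 5.86 FPKM in the other 4, and so did markers of the eye, at 8.63, 6.71 and 21.7 FPKM in replicates 1, 4 and 5 and 0.538 to 1.42 FPKM in the other 3. Endothelium markers were at 66.9, 69.1 and 68.5 FPKM in vB replicates 1, 4 and 5 and 34.5, 27.8 and 23.7 FPKM in replicates 2, 3 and 6. The floor plate markers, 7 genes with Shh, were at 49.9 to 92.5 FPKM in vB and 18.4 to 54.2 FPKM in dB. In dB their mean log2 level had an r of 0.95 with Foxa1 and 0.93 with Foxa2, and in vB of 0.65 and 0.63 (6 libraries each).

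**Figure D3:**
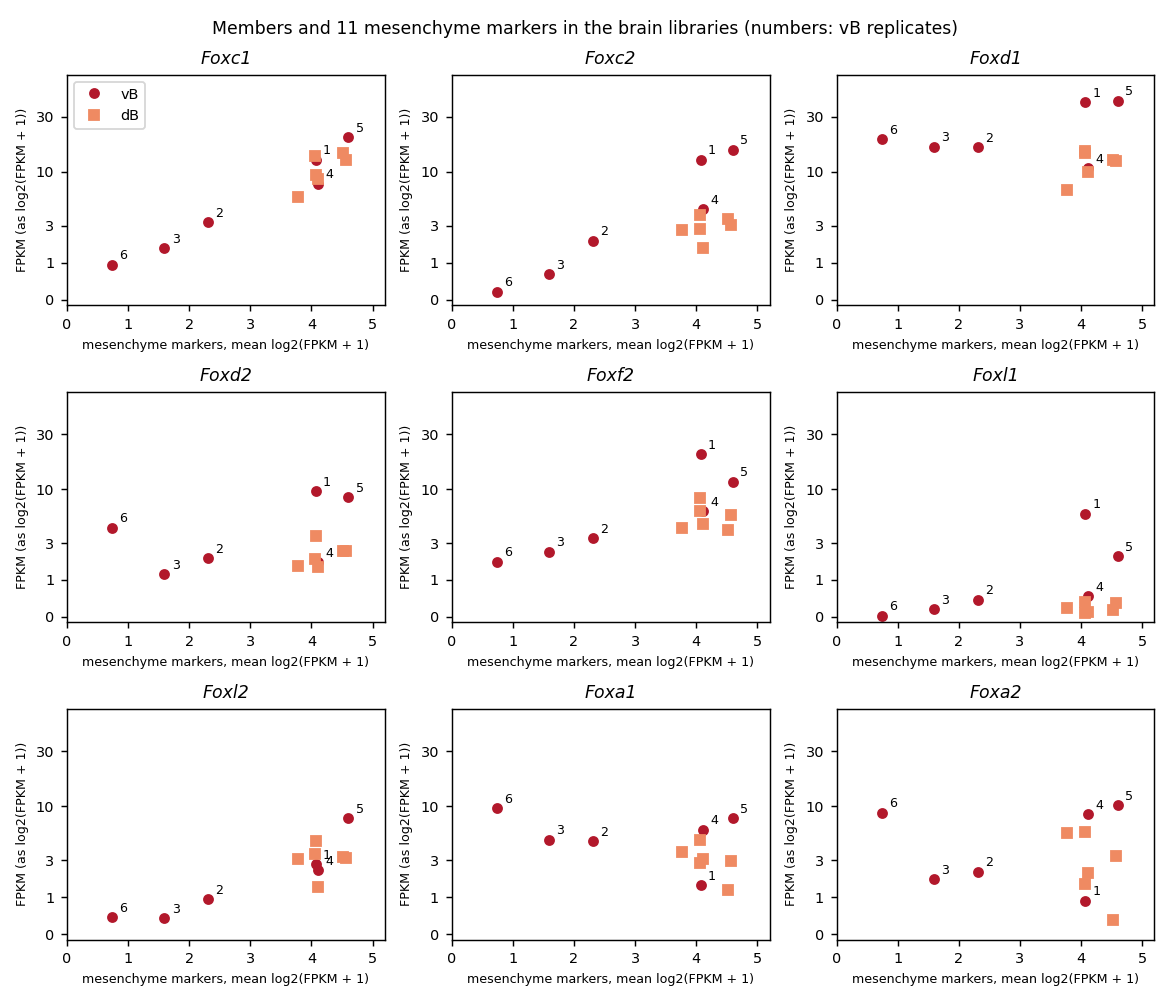
Level of each gene (vertical, FPKM spaced as log2(FPKM + 1)) against the mean log2(FPKM + 1) of 11 mesenchyme markers (horizontal) in 6 vB libraries (circles, with replicate numbers) and 6 dB libraries (squares). Foxc1 and Foxc2 climb with the markers over the vB libraries, while Foxa1 does not, with 9.64 FPKM in replicate 6, which has the fewest mesenchyme transcripts, and 1.503 FPKM in replicate 1.

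FNP replicates 4 and 5 had more brain transcripts than the other FNP libraries, and also the most Foxd1, with 56.0 and 49.5 FPKM there and 29.6 to 39.9 FPKM in the other 4. Foxd2 had 14.4 and 9.90 FPKM in them and 4.56 to 8.17 FPKM in the others, and Foxc2 17.3 and 13.3 FPKM in them and 5.34 to 10.6 FPKM in the others. Ventral forebrain markers (5 genes with Nkx2-1 and Six6) summed to 46.8 and 16.4 FPKM in the 2 libraries and to 0.681 to 2.82 FPKM in the other 4. These sums weigh the markers unequally. Over the FNP libraries Nkx2-1 alone ranged from 0.0373 to 44.7 FPKM and Six6 from 0.532 to 1.58 FPKM, and Rax, Sim1 and Otp did not pass 0.236 FPKM. Surface ectoderm markers were lowest in the same 2 libraries, at 127 and 112 FPKM, against 185 to 222 FPKM in the other 4. The part of these markers in the levels was not tested. Without both libraries Foxc1 and Foxd1 were still called higher in FNP (log2 fold changes 2.33 and 2.05).

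Within close pairs of paralogs the balance differed between tissues, a comparison chosen after the values were seen and given with no test. Foxc1 was below Foxc2 in all 6 MNP libraries, with a ratio of 0.450 to 0.671. The ratio was 1.74 to 3.39 in FNP, 2.34 to 3.07 in limb, 1.00 to 5.92 in vB and 2.20 to 5.33 in dB, and 0.803 to 3.93 in MXP. The MNP libraries thus did not overlap with those of any other tissue. Foxd1 was above Foxd2 in every library of FNP (3.75 to 6.82), MXP (1.38 to 2.49), MNP (2.27 to 6.15), vB (4.15 to 13.5) and dB (4.19 to 7.67). In limb, where both were low, 1 of 6 libraries had more Foxd1, with ratios of 0.0496 to 1.22. FPKM depends on the transcript model. The Foxc1 model of the files, of 3990 bases, and the Foxd1 model, of 2461 bases, end short of their GENCODE genes, so ratios are for comparing tissues.

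**Figure D4:**
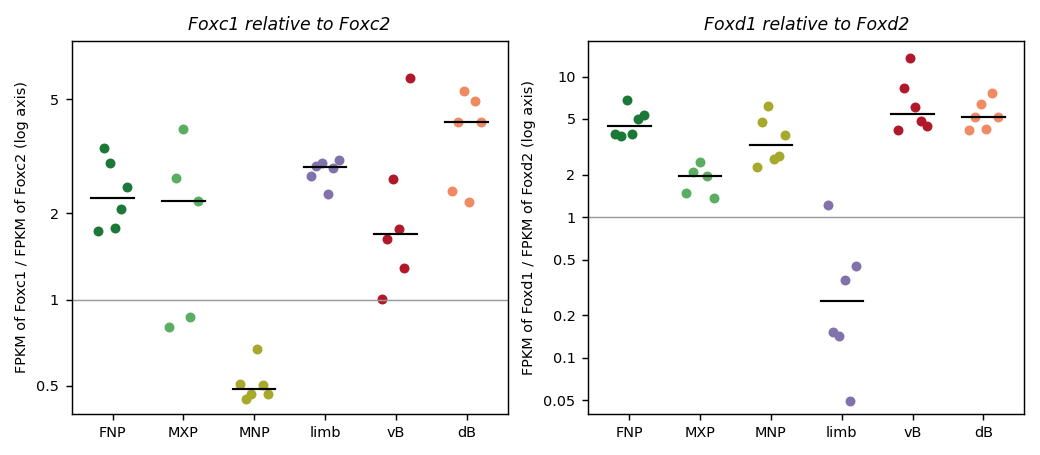
Ratio of FPKM of Foxc1 to Foxc2 (left) and of Foxd1 to Foxd2 (right) in each library, on a log axis, by tissue, with a bar at the median and a line at 1. The 6 MNP libraries lie at 0.450 to 0.671 for Foxc1 over Foxc2, below those of all other tissues.

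Foxl2, Foxd2 and Foxf2 each have a transcript that starts close by on the other strand. Of the sequences above, only that of Foxf2 reaches the start of this transcript. Foxl2os starts 296 bases from the Foxl2 model, 9130206I24Rik (current symbol Foxd2os) lies 390 bases from Foxd2, and 1700018A04Rik 23 bases from Foxf2, at chr13:31625793-31625815. These 23 bases close the Foxf2 sequence.
Between Foxf2 and 1700018A04Rik: gggcagcgtcgcctcagtggctt

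Foxl2os had 10.7, 16.5, 13.6, 12.6 and 19.0 FPKM in the MXP libraries. Elsewhere it did not pass 2.73 FPKM, and its log2 fold change in MXP against the other prominences was 3.16 (SE 0.18, adjusted p = 3.4e-14). Over the 35 libraries its r with Foxl2 was 0.96, and within tissues 0.74. 9130206I24Rik averaged 5.58 ± 1.85 FPKM in FNP and 0.465 ± 0.113 FPKM in limb (SD, n = 6 each), was called in the same direction as Foxd2 in FNP and in MXP against the other prominences (log2 fold changes 1.16 and -1.31), and had an r of 0.96 with Foxd2 (0.91 within tissues). 1700018A04Rik, with a highest tissue mean of 0.919 FPKM in MNP, did not pass the filter, and had an r of 0.78 with Foxf2 (0.66 within tissues). Whether fragments were counted by strand is not given in the sources used here, and where strand is not used, reads of partners that overlap cannot be told apart. The GENCODE model of Foxl2 starts at 98955288, inside Foxl2os.

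**Figure D5:**
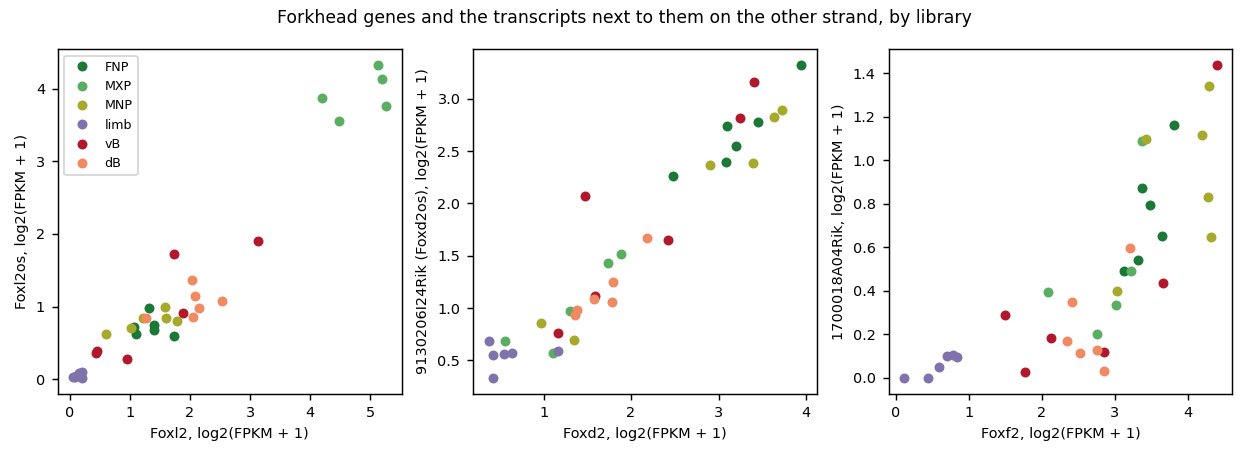
Level of the transcript on the other strand (vertical) against that of its forkhead neighbour (horizontal), both as log2(FPKM + 1), for Foxl2, Foxd2 and Foxf2, 1 point per library, colored by tissue. The MXP libraries are alone at the top right for Foxl2 and Foxl2os, and 1700018A04Rik stays low throughout.

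Foxc2 and Foxl1 lie 8790 bases apart on the same strand of chromosome 8, and their r was 0.84 over 35 libraries and 0.81 within tissues. Mthfsd, on the other side of Foxc2 at 7791 bases, had 10.1 to 12.5 FPKM as tissue means and an r of 0.01 with Foxc2. Gmds, an enzyme gene of fucose synthesis 8950 bases from Foxc1, had an r of 0.72 with it and was highest in FNP, at 14.3 ± 1.72 FPKM (SD, n = 6), with a log2 fold change of 0.66 in FNP against the other prominences, under the fold required.

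Genes with the most similar pattern were taken as those with the highest r over the 35 libraries among 13925 other tested genes, as a description. For Foxl2 they were Foxl2os (0.96), Insc (0.90) and Irx6 (0.87), for Foxa2 Nkx6-2 (0.91), Car4 (0.88) and En2 (0.88), and for Foxa1 Htra3 (0.89), Gpr22 (0.88) and Adcyap1r1 (0.87). Nkx6-2 is a homeobox gene of ventral neural progenitors and En2 one of the midbrain and hindbrain. For Foxc1 they were Rhoj (0.85), B4galt4 (0.84) and Pnpla2 (0.79), and for Foxc2 Fam43a (0.83), 9130206I24Rik (0.81) and Acvrl1 (0.80). Rhoj and Acvrl1 are known from endothelium, whose markers (6 genes, among them Pecam1 and Cdh5) summed to 23.7 to 70.6 FPKM over all libraries. Within vB these markers were highest in replicates 1, 4 and 5, and their part in the r values was not tested. For Foxd1 they were Dtna, 9130206I24Rik and Cobl (0.85, 0.85 and 0.84), for Foxd2 9130206I24Rik, Cobl and Slco3a1 (0.96, 0.83 and 0.76), for Foxf2 Prss23, Cobl and Foxp1 (0.84, 0.81 and 0.80), and for Foxl1 9130206I24Rik, Foxf1 and Foxe1 (0.83, 0.78 and 0.78). Thus 9130206I24Rik was among the closest for 4 of the 9 genes and Cobl, an actin nucleator, for 3.

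Of the 35 other forkhead genes measured, 25 passed the filter. Between facial and neural tissue 2 were higher in facial tissue and 5 lower. Foxf1, the paralog of Foxf2, averaged 15.7 ± 7.88 FPKM (SD, n = 17) across facial libraries and 0.563 ± 1.54 FPKM (SD, n = 12) across neural ones (log2 fold change 3.46 ± 0.20, adjusted p = 2.8e-16). Unlike Foxf1, Foxf2 was not called between facial and neural tissue (log2 fold change 0.72 ± 0.21, adjusted p = 0.0048), and the difference between the paralogs was not tested. In facial tissue against limb 4 were higher and 0 lower, among them Foxf1 (log2 fold change 3.70) and Foxe1 (1.93), and in limb against neural tissue 1 was higher, Foxo4 (1.75), and 7 lower. In each of FNP, MXP and MNP against the other prominences 1 was higher and 1 lower. Foxd3, a neural crest factor related to Foxd1 and Foxd2, was higher in MXP (log2 fold change 1.41 ± 0.15, adjusted p = 3.9e-08), where those 2 genes were lower, and Foxf1 was lower in MXP (-1.57 ± 0.28, adjusted p = 0.00039). In vB against dB 0 were higher and 2 lower, Foxn4 and Foxj1 (log2 fold changes -1.16 and -1.05).

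Of 18 genes of the Hedgehog pathway, 16 passed the filter. Between facial tissue and limb, and in each of FNP, MXP and MNP against the other prominences, 0 were called by limma, with 4, 2, 4 and 3 at an unadjusted p under 0.05 and medians of -0.04 to 0.07 on the log2 scale. In facial against neural tissue the transcription factor Gli1 and the co-receptor Gas1 were higher (log2 fold changes 1.31 and 1.29) and the ligand Shh lower (-1.93). Gli1 averaged 22.8 ± 6.98 FPKM (SD, n = 17) across facial libraries and 8.78 ± 3.26 FPKM (SD, n = 12) across neural ones. In limb against neural tissue Gas1 was higher (1.10) and Shh lower (-1.35). In vB against dB 2 were higher and 3 lower. Shh had 26.1 ± 6.53 FPKM in vB and 5.94 ± 3.39 FPKM in dB (SD, n = 6 each; log2 fold change 2.08 ± 0.37, adjusted p = 0.00039), and the co-receptors Gas1 and Cdon were lower (-2.43 and -1.95). Foxa1 and Foxa2 were not called in that comparison, with log2 differences of 0.64 and 0.52 and 95% intervals from 0.12 to 1.17 and from -0.22 to 1.25.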

How the data were processed

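PolyA RNA of 35 libraries was sequenced as paired reads of 75 bases. The authors computed FPKM with Cufflinks for each transcript of mm10, and deposited 1 table per library with FPKM and coverage per transcript. The submitters' processing notes also name Bowtie2 and DESeq2, and no source used here gives the aligner behind the FPKM tables or the strand setting. The deposited coverage values, a signal that is not normalized for depth, served only to gauge depth. Transcripts with the same gene symbol were summed (59055 of 59120 transcripts, 65 whose entries could not be read left out), which gave 30723 symbols. Because short transcripts take up to 39.2% of the FPKM of libraries numbered 1, and 0.653% to 10.3% elsewhere, a rescaling without them was tried.

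Genes were kept where any tissue had a mean of 1 FPKM or more, and their log2(FPKM + 1) was modelled with limma 3.58.1 (R 4.3.3, trend and robust options) with 1 mean per tissue over all libraries. P-values were adjusted by Benjamini-Hochberg over all 13934 genes in each comparison, and calls needed both a value under 0.05 and a change of 2-fold or more. Since FPKM are not counts, no count model was run. The steps were tested on simulated data, where 100 of 100 genes changed by 1.5 and 100 of 100 changed by 2.5 on the log2 scale were called in facial against neural tissue, with 1 unchanged gene among 13934. The changed genes were drawn from the more strongly expressed ones, and the simulated noise held no sequencing runs. The test therefore does not cover weakly expressed genes. P-values measure the spread between pools of embryos, which includes differences between sequencing runs, since the main fit held no term for the run. For each gene 1 spread was fitted over all 6 tissues, so the wide range of vB libraries also entered comparisons without vB. For Foxc2 in FNP against the other prominences, the log2 fold change of 1.11 had an adjusted p of 0.1. Without vB replicates 1, 4 and 5 the same fold change had an adjusted p of 0.0077 and was called. No pair of libraries held identical values (highest r = 0.989).

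The 9 genes and all gene lists were chosen with earlier results of these data known. The text names the 9 genes, for each the 3 other genes most like it by r, at most 3 called genes per list and comparison, and genes within 10 kb. Values of some single genes of the lists are not reported here. Alternatives changed the pseudocount, the filter, the scaling, the weights, the blocks and the libraries used. Tables were handled with Python 3.11.15, pandas 2.3.3 and NumPy 2.4.6, and plots drawn with Matplotlib 3.10.9.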

Additional observations from a re-analysis of the deposited data

Results flagged for a closer look

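In 54 groups of 5 or 6 libraries, 1 per gene and tissue, 3 held a library far from the rest, and chance gives about 1 in 20. All 3 were limb libraries at low levels. Foxd1 had 0.687 FPKM in limb replicate 1 and 0.0489 to 0.208 FPKM in the other 5. Foxa1 had 0.138 FPKM in the same library and 0 to 0.0400 FPKM in the others. Neural markers there summed to 44.7 FPKM, against 14.6 to 18.7 FPKM in the other limb libraries, and ventral forebrain markers to 3.91 FPKM, against 0.202 to 0.667 FPKM, and their part in the result was not tested. Foxd2 had 1.25 FPKM in limb replicate 5 and 0.295 to 0.562 FPKM in the others.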

How the results depend on the processing

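The count of genes called in at least 1 pair of tissues stayed at 9 under every alternative run. In MNP against the other prominences, where 1 gene was called, there were 3 with 0.1 added in place of 1 (with and without the lower filter), 2 with quantile normalization, 4 with library quality weights and 4 without MNP replicates 2 and 3, an alternative chosen, like that without FNP replicates 4 and 5, after seeing the data. Between facial tissue and limb 3 of 5 were called in replicates 1 to 3 alone. In MXP against the other prominences 2 of 5 were called in replicates 1 to 3 alone and 2 in replicates 4 to 6 alone, and in FNP 2 of 4 in replicates 4 to 6 alone. Fewer libraries enter these fits. Between vB and dB, where 0 were called, there were 1 in replicates 4 to 6 alone (Foxa1, log2 fold change 1.34, adjusted p = 0.021), 3 without vB replicates 1, 4 and 5 and 2 with weights. Without those vB replicates Foxc2 reversed to -1.11, and between facial and neural tissue 6 were called in place of 2, and 5 with weights. Those vB replicates were chosen by mesenchyme markers that ran with several of the 9 genes in vB, so the fits without them are no test of a difference. For the alternatives the share of all genes called was not computed. The causes were not tested.

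With each library left out in turn, the counts were 9 to 9 for any pair, 2 to 2 for facial against neural tissue, 6 to 6 for limb against neural tissue, 5 to 6 for facial tissue against limb, 3 to 4 for FNP, 4 to 6 for MXP, 1 to 2 for MNP and 0 to 0 for vB against dB. Over single genes and comparisons these fits left the status, called or not called, unchanged in 2191 cases. They gained a call in 11 and lost one in 3. The other settings left the status unchanged in 824, gained a call in 41, lost one in 16 and reversed 1. Unchanged cases include those never called.

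With the replicate number as a block, Foxc2 was also called between facial tissue and limb (1.03, adjusted p = 0.02) and in FNP against the other prominences (1.09, adjusted p = 0.033), and no other call changed. No pairing was assumed, since no label says that a number marks a shared batch and not every pair correlated over 0.1. Of 85 same-numbered pairs of libraries 78 did (lowest 0.0078, median 0.342), and 71 correlated best with their own number, a hint from the data. Replicates 1, 2 and 3 each came largely from a single sequencing run, so number and run cannot be told apart there. Under 0.1 FPKM a level rests on few reads (3.60 to 7.34 per kb), which limits Foxa1, Foxa2, Foxd1, Foxl1 and Foxl2 in limb.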
